A study of Mus musculus with 4 samples.

Results

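Cycling monocyte progenitors were followed in the bone marrow of mice with myeloma, 24 h after 1 of 2 treatments. The cells were chosen one by one from raw counts of unique molecular identifiers (UMIs), each of which stands for 1 captured transcript. A cell had at least 1 UMI of Csf1r, at least 2 of F13a1, at least 2 of Ly6c2 and at least 2 of Mki67 and Top2a together, no UMI of Cd79a, and at most 1 of Mmp8, Mmp9 and Cxcr2 together. Csf1r encodes the receptor of macrophage colony-stimulating factor, F13a1 and Ly6c2 mark the classical monocyte lineage, Mki67 and Top2a mark dividing cells, Cd79a marks B cells, and the last 3 genes mark late neutrophils. These gates held 996 of 39743 cells that showed 300 genes or more and had no more than 20% mitochondrial UMIs. They came from 4 droplet-based libraries of total marrow, 1 per mouse. The 2 mice given vehicle contributed 215 and 193 of the cells, while 385 and 203 came from those given purinostat mesylate (PM). PM is an inhibitor of class I and IIb histone deacetylases (HDACs) and was given at 10 mg/kg. All 4 mice belonged to the 5TMM model, in which 5TGM1-luc myeloma cells were given by vein to C57BL/KawRij mice at 6 weeks of age and left to establish for 3 weeks, so that the vehicle marrow also carried the tumor. Red cells had been lysed, and no cell type was sorted. The labels tie no vehicle mouse to a PM mouse, and p-values measure the spread between 2 mice per group.

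Monocytes arise in the marrow from granulocyte-monocyte progenitors through dividing intermediates that carry Csf1r and respond to its ligands. The factors Irf8 and Klf4 direct this branch, while Gfi1 and Cebpe direct the neutrophil branch. On the way, cells lose the proteases of the primary granules, leave the cell cycle, and gain receptors for chemokines and microbial products. Histone deacetylases remove acetyl groups from histones and other proteins, and most act within corepressor complexes.

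Summed over the gated cells, the vehicle mice gave 6208938 and 5922484 UMIs, against 8805586 and 5428070 UMIs from the PM mice. The whole libraries held 86052982 and 69828595 UMIs with vehicle, and 109447030 and 74388936 with PM. The median gated cell held 25703 and 27992 UMIs with vehicle and 21266 and 24888 with PM. Gated cells of the first PM mouse were thus the shallowest per cell, although that mouse gave the most cells. Of the gated cells, 9.30% and 4.15% (vehicle) and 6.75% and 8.87% (PM) were called doublets, and these were kept. Between 18 and 41 cell barcodes were shared by each pair of libraries. Levels below are in CPM, which are counts relative to the summed UMIs of a mouse's gated cells after TMM scaling. Since each UMI marks a transcript's 3′ end, they do not scale with gene length.

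Klf4, which the gates did not use, was checked against the label. It stood at 338 and 397 CPM with vehicle and 347 and 328 CPM with PM. With each cell thinned to 9000 UMIs, 80.5% and 82.2% of the gated vehicle cells and 77.8% and 72.3% of the gated PM cells had a Klf4 UMI. In cycling neutrophil precursors, taken as cells with at least 2 UMIs of Mki67 and Top2a, at least 4 of Camp, Ngp and Ltf, and none of Csf1r, F13a1 or Cd79a, the same share was 1.44%, 2.03%, 1.86% and 1.87% in this order of mice. The gated cells thus carried a monocyte factor that a cell type of the same marrow, whose thinned cells had held a median of 15927 to 19469 UMIs against 22140 to 29036, almost lacked. That class was defined by having no UMI of Csf1r or F13a1, so the contrast describes the label and does not test it. Klf4 did not pass the test between PM and vehicle, at a log2 fold change of -0.12 ± 0.13 (SE).

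The gates fixed the levels of their own genes, which are given as a description. Csf1r was at 114.9 and 122 CPM with vehicle and 128 and 103 CPM with PM. F13a1 was at 1075 and 1060 CPM against 976 and 984 CPM. Ly6c2 was at 2726 and 2806 CPM against 3838 and 3493 CPM, the only gate gene of the monocyte lineage whose 2 PM values both lay above the vehicle values. Mki67 was at 623 and 769 CPM against 579 and 579 CPM, and Top2a at 823 and 842 CPM against 659 and 732 CPM, both lower in the PM mice. At the edges, 270 gated cells had exactly 1 Csf1r UMI and held Klf4 at 254 CPM (here and in the next sentences without TMM scaling), while 404 cells that missed only the Csf1r gate held it at 125. The 40 cells with exactly 2 UMIs of Mki67 and Top2a held Klf4 at 365 CPM, and the 79 cells with 1 such UMI at 428. On the neutrophil side, 473 gated cells had 1 UMI of Mmp8, Mmp9 or Cxcr2, at 343 CPM of Klf4, and 351 cells just outside had 2, at 376.

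The gates held 2.32% and 2.47% of all kept cells with vehicle, against 2.88% and 2.19% with PM, so the PM values lay on both sides of the vehicle values. Vehicle averaged 2.39% ± 0.102 and PM 2.53% ± 0.485 (SD, n = 2 mice each), an exact two-sided permutation test gave p = 1, and with 2 mice against 2 that test cannot go below 0.33. Among the 1502 cells that passed the monocyte gates whatever their Mki67 and Top2a counts, 66.2% and 63.3% cycled with vehicle, against 64.5% and 73.8% with PM (exact permutation p = 0.667). Higher shares were seen with PM in 3 of the 4 vehicle-PM pairs of mice. When every cell was first thinned to 3000 UMIs, this difference turned, from a mean of 41.7% with vehicle to 36.3% with PM.

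**Figure D1:**
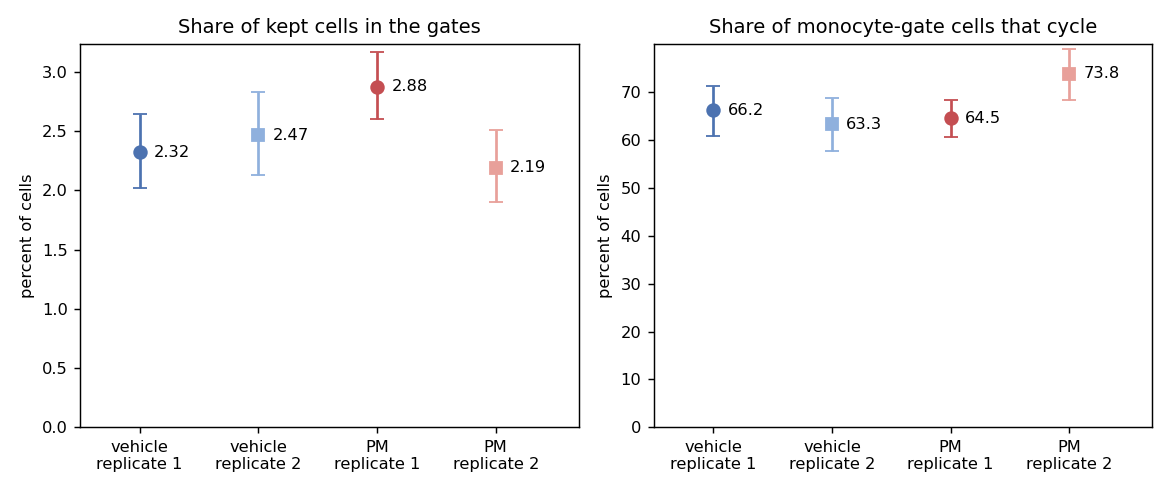
The left panel plots, for each of the 4 mice, the percentage of kept cells inside the gates, and the right panel the percentage of monocyte-gate cells that cycle; bars are exact 95% binomial intervals, which cover counting error only. The PM points, at 2.88% and 2.19%, lie on both sides of the vehicle points at 2.32% and 2.47%.

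The gated cells varied widely among themselves in their primary granule genes. Primary granule genes (10 genes, among them the proteases Elane, Prtn3 and Ctsg and the peroxidase Mpo) took 0.600 per mille of a cell's UMIs at the 10th percentile and 20.97 per mille at the 90th in the first vehicle mouse, and 0.951 and 30.2 per mille in the first PM mouse. In the second mice these were 0.603 and 18.4 per mille with vehicle and 0.773 and 23.4 per mille with PM. Elane or Mpo was seen in 83.6% and 81.6% of vehicle cells and in 94.7% and 91.0% of PM cells after thinning to 9000 UMIs. In neutrophil precursors these shares were 41.5% and 40.1% against 71.5% and 62.8%, higher with PM there as well. G2M genes took a median of 11.1 and 10.8 per mille of a gated cell's UMIs with vehicle and 9.54 and 9.86 per mille with PM, and S genes 6.06 and 5.86 against 5.75 and 5.60. In both cycle lists the 2 PM medians lay below the 2 vehicle medians.

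Between PM and vehicle, 69 genes were higher and 14 lower among 10935 tested genes, by edgeR's quasi-likelihood test with a Benjamini-Hochberg adjusted p under 0.05 and an absolute log2 fold change over 0.5. That is 0.631% of the tested genes in the upward and 0.128% in the downward direction, 0.759% in all, and 1071 genes (9.79%) had an unadjusted p under 0.05. Of the rises, 4 belonged to the list of MHC class II presentation and 5 to that of the type I interferon response. Cd14, Ccl2, Per1 and Nfkbia were among the falls. The counts moved with single mice: without the second PM mouse 184 genes were higher and 80 lower, without the second vehicle mouse 119 and 66, without the first vehicle mouse 40 and 25, and without the first PM mouse 73 and 26. The median log2 fold change over all tested genes was -0.01.

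**Figure D2:**
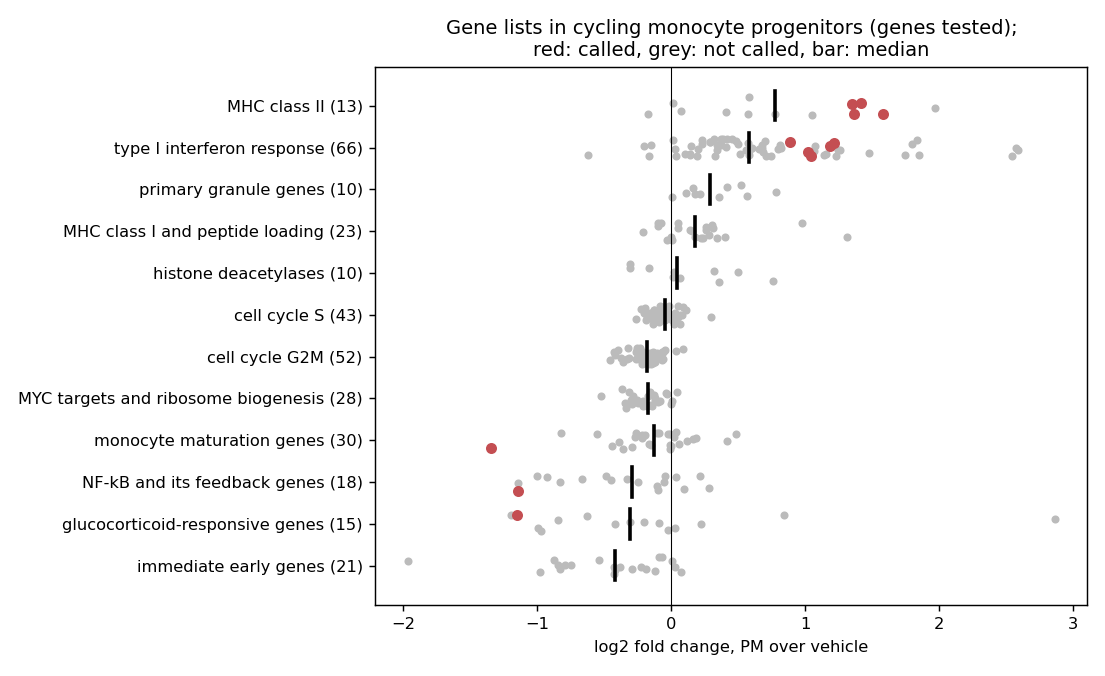
Each point is 1 tested gene's log2 fold change, PM over vehicle, in the gated cells (horizontal axis); rows are gene lists with their number of tested genes, red points passed the test, grey points did not, and black bars are medians. The MHC class II and type I interferon lists have the highest medians shown, at 0.78 and 0.58, and the immediate early list the lowest, at -0.42.

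The 4 called genes of the MHC class II list encode the core of the presenting molecule: H2-Aa its alpha chain, H2-Ab1 and H2-Eb1 beta chains, and Cd74 the invariant chain that guides it to the endosome. H2-Aa, H2-Ab1 and H2-Eb1 lie together on chromosome 17 of GRCm38, at chr17:34282744-34287823 (minus strand), chr17:34257689-34269419 and chr17:34305867-34316674 (plus strand). Promoters of this family share a Y box, read by the factor NF-Y, next to an X box, and Ciita is the coactivator that assembles on them. The 150 bases before the RefSeq start (GRCm38.p6) are printed for 2 of the 4 genes, 5′ to 3′ on the gene's strand, from chr17:34287824-34287973 for H2-Aa and chr17:34305717-34305866 for H2-Eb1, as examples of the called genes. H2-Ab1 had no match in the RefSeq promoter table used here, and Cd74, which lies on another chromosome, was left out by choice. Neither gene's window was examined singly for the letters below, so the 2 windows printed do not speak for all 4 genes. Capitals mark the letters CTGATTGG.
H2-Aa: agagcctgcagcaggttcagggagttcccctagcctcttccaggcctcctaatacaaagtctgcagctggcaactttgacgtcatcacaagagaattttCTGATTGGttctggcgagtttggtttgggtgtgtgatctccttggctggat
H2-Eb1: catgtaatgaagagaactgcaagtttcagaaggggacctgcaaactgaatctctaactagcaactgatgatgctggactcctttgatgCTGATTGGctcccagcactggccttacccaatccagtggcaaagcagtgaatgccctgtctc
The letters ended 44 bases before the start of H2-Aa and 55 bases before that of H2-Eb1. On either strand they occurred in 3.16% of 32851 promoter windows of this length. A match is a description of these windows and not a test.

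Cd74 stood at 33.7 and 34.6 CPM with vehicle and 91.5 and 113 CPM with PM. The PM values did not overlap the vehicle values, and the gene rose (log2 fold change, PM over vehicle, 1.58 ± 0.14 SE, adjusted p 0.000123, by edgeR's quasi-likelihood test, as for all adjusted p-values of single genes below). H2-Aa was at 18.6 and 13.9 CPM with vehicle and 42.1 and 45.1 CPM with PM (log2 1.42 ± 0.17 SE, adjusted p 0.00178). H2-Ab1 was at 17 and 16.1 CPM with vehicle and 43.4 and 41 CPM with PM (log2 1.35 ± 0.15 SE, adjusted p 0.00121). The lowest of the 4, H2-Eb1, was at 6.57 and 3.47 CPM with vehicle and 13.8 and 12.2 CPM with PM (log2 1.36 ± 0.29 SE, adjusted p 0.0449), and its call was lost in 5 of 16 alternatives, among them without the second vehicle mouse (adjusted p 0.102), without the first PM mouse (0.0507) and with DESeq2. The other 3 calls stood under all 17 alternatives tried, among them leaving out called doublets and leaving out each mouse's highest cell. Of the 13 tested members of the list, 12 had a positive log2 fold change, as had 5296 of the 10935 genes tested, and 4 were called higher, as were 0.631% of all. Ciita was not called (log2 0.78, adjusted p 0.693), and neither were H2-DMa (0.08, adjusted p 0.934) and H2-DMb1 (0.41, adjusted p 0.309), whose products load peptide. In sums over cells, more cells with a transcript and more RNA per cell cannot be told apart.

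These transcripts were rare in the gated cells and unevenly spread. After thinning to 9000 UMIs, 12.8% and 11.9% of vehicle cells and 38.1% and 45.2% of PM cells had a UMI of any of the 4 genes (unthinned 25.6% and 21.2% against 61.0% and 66.5%). The tenth of cells with the most such UMIs held 92.6% and 93.4% of them with vehicle and 78.7% and 77.5% with PM. Cycling neutrophil precursors, which should lack class II, had shares of 9.27% and 10.1% with vehicle and 25.8% and 17.2% with PM. There Cd74 was at 43.2 and 41.6 CPM with vehicle and 128 and 64.3 CPM with PM, above the gated cells in 3 of the 4 mice, so that no order between the classes is read. The PM effect on Cd74 in these precursors was 1.19 ± 0.32 (SE, adjusted p 0.412), and its difference from that in the gated cells was 0.47 ± 0.36 (adjusted p 0.84). The precursors were not a pure class, since unthinned 12.1% and 24.9% of them with vehicle and 27.4% and 31.2% with PM had a UMI of the red cell genes Car1, Car2 or Klf1. The part of free RNA in the droplets was not tested.

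**Figure D3:**
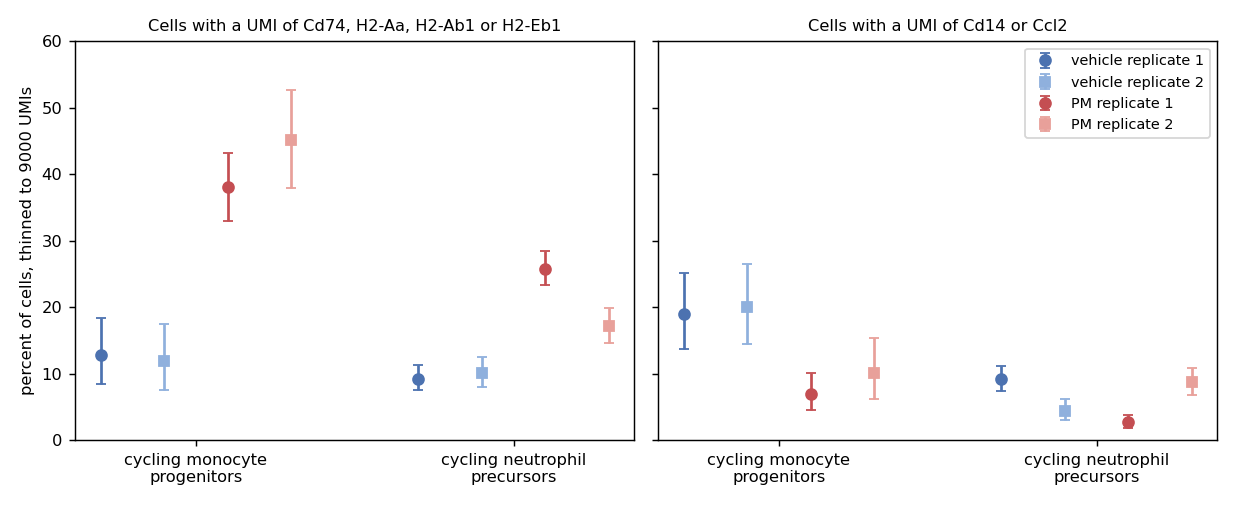
Points are percentages of cells with a UMI of the named genes after thinning to 9000 UMIs (vertical axis), by mouse, in cycling monocyte progenitors and cycling neutrophil precursors; bars are exact 95% binomial intervals for counting error. For MHC class II the PM mice reach 38.1% and 45.2% in the progenitors against 12.8% and 11.9% with vehicle, and for Cd14 or Ccl2 they stand at 6.94% and 10.1% against 19.0% and 20%.

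Of 66 tested genes of the type I interferon response, 5 were called higher and none lower, against 0.631% and 0.128% of all genes. The median was 0.58, 62 members had a positive log2 fold change, and in 46 both PM mice lay above both vehicle mice, as in 20.9% of all tested genes. Dhx58, a regulator of RNA sensing by the RIG-I-like receptors, was at 8.5 and 7.47 CPM with vehicle and 22 and 14.7 CPM with PM (log2 1.22 ± 0.24 SE, adjusted p 0.0356). Ube2l6, the conjugating enzyme for Isg15, was at 8.66 and 7.81 CPM with vehicle and 19.8 and 17.7 CPM with PM (log2 1.19 ± 0.20 SE, adjusted p 0.0157). Xaf1, a pro-apoptotic partner of Xiap, was at 9.14 and 10.4 CPM with vehicle and 22.2 and 17.9 CPM with PM (log2 1.05 ± 0.20 SE, adjusted p 0.0332). For each of these 3 genes the groups did not overlap, and Dhx58, Ube2l6 and Xaf1 lost their calls under 7, 2 and 6 alternatives. Lgals3bp, a secreted glycoprotein that binds galectins, was at 22.6 and 22.2 CPM with vehicle and 46.3 and 44.7 CPM with PM (log2 1.02 ± 0.15 SE, adjusted p 0.00661). Samd9l, an antiviral factor and the remaining call of the list, named after its values were seen, was at 11.2 and 13.9 CPM with vehicle and 22.7 and 23.9 CPM with PM (log2 0.89 ± 0.18 SE, adjusted p 0.0416). In both genes the 2 PM values lay above the 2 vehicle values, and Samd9l lost its call under 6 alternatives. Summed over its 71 members in the files, the list was at 4161 and 3887 CPM with vehicle and 5166 and 4335 CPM with PM. The most abundant member, Ly6e, hardly differed, at 0.10 on the log2 scale. In the sums, the second PM mouse lay nearer to the vehicle mice than the first PM mouse did. Of 12 tested genes of the interferon gamma and GTPase list, none was called, and Gbp7 was at 66.5 and 44.6 CPM with vehicle and 41.5 and 36.4 CPM with PM (log2 -0.51 ± 0.18, adjusted p 0.344). Of 23 genes of MHC class I and peptide loading, none was called, at a median of 0.18, and B2m, the light chain of class I, was at 1525 and 1121 CPM with vehicle and 1533 and 1629 CPM with PM (log2 0.26 ± 0.18, adjusted p 0.704).

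Above a mean of 20 CPM, and with no overlap between the groups, the largest rises included several surface and secreted proteins of myeloid cells. Ear2, a ribonuclease of the eosinophil-associated family, was at 20 and 23.1 CPM with vehicle and 54.9 and 62.7 CPM with PM (log2 1.45 ± 0.15 SE, adjusted p 0.000778). It has near-identical family members in the genome, and how reads were split among them was not tested. Siglecg, an inhibitory receptor for sialic acids, was at 14.6 and 21.2 CPM with vehicle and 46.7 and 43.8 CPM with PM (log2 1.35 ± 0.18 SE, adjusted p 0.00479). Mgl2, a C-type lectin that binds galactose, was at 18.9 and 15.8 CPM with vehicle and 38.3 and 37.1 CPM with PM (log2 1.12 ± 0.16 SE, adjusted p 0.00661). In all 3 genes the PM mice were close to each other and well above both vehicle mice.

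Prkcb, a kinase of the protein kinase C family, was at 16.5 and 20.5 CPM with vehicle and 45.6 and 41.5 CPM with PM (log2 1.24 ± 0.16 SE, adjusted p 0.00424). Apoe, the lipid carrier, was at 15.6 and 14.4 CPM with vehicle and 42.3 and 26.5 CPM with PM (log2 1.22 ± 0.22 SE, adjusted p 0.0333), and its call was lost without either vehicle mouse or without the first PM mouse (adjusted p 0.137, 0.0916 and 0.0612). The PM mice lay close together for Prkcb and apart for Apoe. The tetraspanin Cd63 was at 40.9 and 37.5 CPM with vehicle and 94.1 and 68.4 CPM with PM (log2 1.06 ± 0.16 SE, adjusted p 0.0105). Cd63 lost its call with called doublets left out and with no gate on Mmp8, Mmp9 and Cxcr2. Over 16 alternatives Cd63 had a lowest log2 fold change of 0.61. Its relative Cd9 was at 17.6 and 25.7 CPM with vehicle and 45.3 and 43.5 CPM with PM (log2 1.04 ± 0.18 SE, adjusted p 0.0157). Gsn, gelsolin, which severs actin filaments, was at 12.8 and 20.3 CPM with vehicle and 37.6 and 30.4 CPM with PM (log2 1.05 ± 0.21 SE, adjusted p 0.0455), and both it and Cd9 lost their calls without the first vehicle mouse. In none of these 5 genes did the groups overlap.

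**Figure D4:**
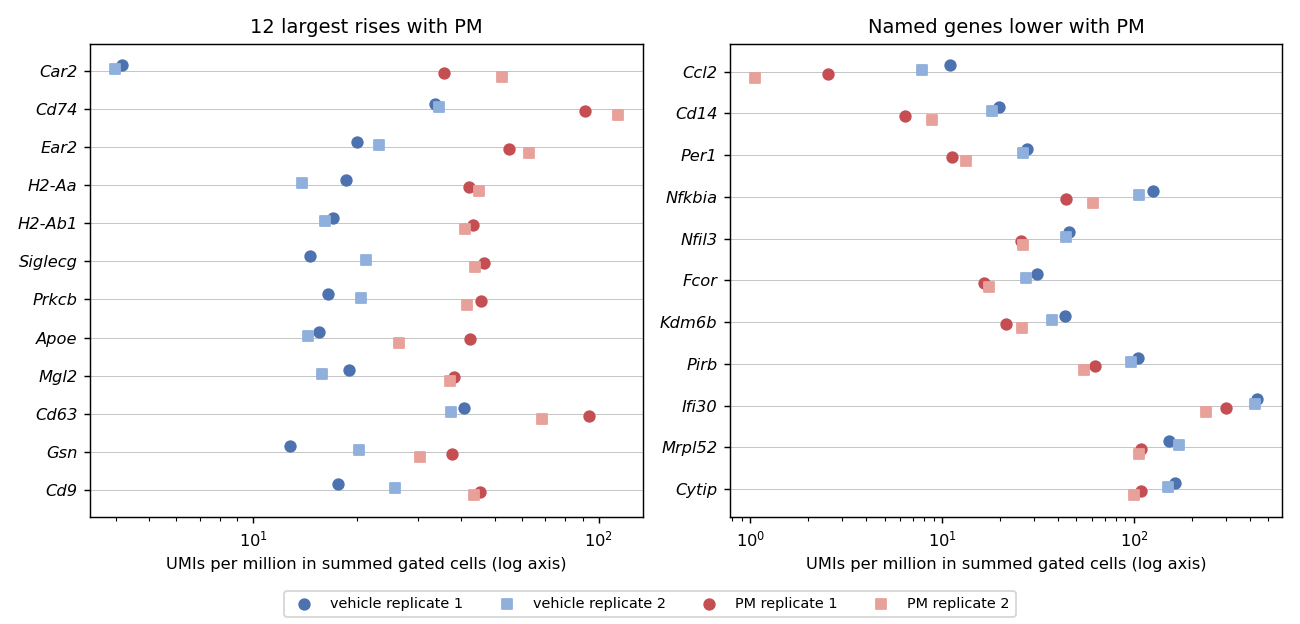
Each point is 1 mouse's level in the summed gated cells, in CPM on a log axis, for the 12 largest rises (left) and 11 named genes that were lower with PM (right); blue marks vehicle and red PM, circles replicate 1 and squares replicate 2. In every gene shown both PM points lie on the same side of both vehicle points, as for Cd74 at 91.5 and 113 CPM against 33.7 and 34.6 CPM.

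Cd14, the coreceptor of lipopolysaccharide and the only call among 30 tested monocyte maturation genes, was at 19.7 and 18.2 CPM with vehicle and 6.36 and 8.84 CPM with PM (log2 -1.35 ± 0.22 SE, adjusted p 0.0134). Ccl2, the ligand of the chemokine receptor Ccr2 (chr11:82035571-82037453, plus strand), was at 10.9 and 7.81 CPM with vehicle and 2.54 and 1.06 CPM with PM (log2 -2.28 ± 0.38 SE, adjusted p 0.0141), and its call was lost without the first vehicle mouse (adjusted p 0.0622) or without each mouse's highest cell (0.118). After thinning to 9000 UMIs, 19.0% and 20% of the vehicle cells, but 6.94% and 10.1% of the PM cells, had a UMI of Cd14 or Ccl2. In neutrophil precursors this share was 9.17% and 4.46% against 2.70% and 8.72%, below the gated cells of the same mouse in each case.

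Nfkbia, which encodes the inhibitor that NF-kB itself induces, was at 125 and 106 CPM with vehicle and 44.3 and 61.2 CPM with PM (log2 -1.14 ± 0.15 SE, adjusted p 0.00661), with an adjusted p of 0.0613 when the gate on Mmp8, Mmp9 and Cxcr2 was left out. It was the only call among 18 tested genes of NF-kB and its feedback, a list with a median of -0.29, 11 of whose members lay lower in both PM mice than in both vehicle mice (19.3% of all genes did). Per1, a clock gene that glucocorticoids also induce, was at 27.6 and 26.2 CPM with vehicle and 11.2 and 13.3 CPM with PM (log2 -1.15 ± 0.17 SE, adjusted p 0.00858). Nfil3, a basic leucine zipper factor tied to the clock, was at 45.7 and 44.1 CPM with vehicle and 25.6 and 26.3 CPM with PM (log2 -0.79 ± 0.14 SE, adjusted p 0.0221). These 2 were the calls among 14 tested clock genes, and Per1 was the only one among 15 glucocorticoid-responsive genes, whose median was -0.31. Per1 is counted in both lists, and 0.128% of all tested genes were called lower. Among 21 immediate early genes none was called, at a median of -0.42. The list summed to 3284 and 3589 CPM with vehicle and 2049 and 3254 CPM with PM, with the first PM mouse the lowest. Handling stress genes, which overlap this list, summed to 2681 and 2774 CPM with vehicle and 1445 and 2473 CPM with PM, with the same mouse lowest, and their part in these falls was not tested.

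Kdm6b, a demethylase of lysine 27 on histone H3, was at 43.6 and 37.3 CPM with vehicle and 21.4 and 26 CPM with PM (log2 -0.78 ± 0.16 SE, adjusted p 0.0416). Pirb, an inhibitory receptor for class I molecules, was at 105 and 95.9 CPM with vehicle and 62.6 and 54.4 CPM with PM (log2 -0.77 ± 0.12 SE, adjusted p 0.0119). Ifi30, the lysosomal thiol reductase that prepares antigen for class II, was at 438 and 424 CPM with vehicle and 299 and 235 CPM with PM (log2 -0.69 ± 0.14 SE, adjusted p 0.0449), a fall beside the rise of the class II chains, and its call was lost in 3 of the 4 fits that left out a mouse. In each of these 3 genes both PM mice lay below both vehicle mice, and the call of Kdm6b was lost without the first vehicle or the first PM mouse. Fcor, a corepressor of Foxo1, was at 31.1 and 27.4 CPM with vehicle and 16.4 and 17.5 CPM with PM (log2 -0.79 ± 0.16 SE, adjusted p 0.0416). The adaptor Cytip was at 162 and 149.7 CPM with vehicle and 109 and 99.7 CPM with PM (log2 -0.58 ± 0.12 SE, adjusted p 0.0416). Mrpl52, of the mitochondrial ribosome, was at 151 and 170.2 CPM with vehicle and 108 and 106 CPM with PM (log2 -0.58 ± 0.12 SE, adjusted p 0.0411). The last 2 were the smallest of the falls named here, and each call was lost without 2 of the mice in turn, as were those of Fcor and Nfil3 without the first vehicle or the first PM mouse.

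The factors that set the monocyte branch did not pass the test. Irf8 was at 531 and 661 CPM with vehicle and 740.2 and 658 CPM with PM (log2 0.23 ± 0.16, adjusted p 0.698). Spi1 (PU.1) was at 246 and 267 CPM with vehicle and 239 and 215 CPM with PM (log2 -0.17 ± 0.12, adjusted p 0.711). The groups overlapped for Irf8, whereas both PM values of Spi1 lay below the vehicle values. Myb, a factor of immature progenitors, was at 251 and 229 CPM with vehicle and 296 and 353 CPM with PM, higher in both PM mice but short of the threshold (log2 0.44 ± 0.13, adjusted p 0.216). On the neutrophil side, Gfi1 was at 25.6 and 15.5 CPM with vehicle and 30.2 and 29.5 CPM with PM (log2 0.53 ± 0.21, adjusted p 0.407) and Cebpe at 20.4 and 29.2 CPM with vehicle and 37.6 and 33.8 CPM with PM (log2 0.54 ± 0.18, adjusted p 0.287). All 10 primary granule genes had a positive log2 fold change, as had 5296 of the 10935 genes tested, and none was called. In 5 of the 10 both PM mice lay above both vehicle mice, as in 20.9% of all tested genes. Mpo was at 3385 and 2924 CPM with vehicle and 4822 and 4528 CPM with PM (log2 0.57 ± 0.19, adjusted p 0.268), and Elane at 1714 and 1534 CPM with vehicle and 3315 and 2273 CPM with PM (log2 0.78 ± 0.20, adjusted p 0.123). Of 19 growth factor and cytokine receptors none was called, and Ifngr1, the most abundant, was at 203 and 192 CPM with vehicle and 210.3 and 196 CPM with PM (log2 0.04 ± 0.12).

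No gene of the cell cycle lists was called. In the G2M list 2 of 52 genes had a positive log2 fold change, at a median of -0.18, and 30 lay lower in both PM mice than in both vehicle mice, as did 19.3% of all tested genes. The gates selected on 2 genes of this program, so the list is a description. Hmgb2, its most abundant gene, was at 3672 and 3998 CPM with vehicle and 3382 and 3234 CPM with PM (log2 -0.21 ± 0.18). In the S list of 43 genes the median was -0.05, and Pcna, the sliding clamp of replication, was at 659 and 648 CPM with vehicle and 582 and 593 CPM with PM (log2 -0.15 ± 0.14). Of G1 cyclins, Cdk4, Cdk6 and their inhibitors 0 of 20 were called. Replication-dependent histone genes varied between the vehicle mice, at a sum of 2005 and 4436 CPM with vehicle and 2536 and 2007 CPM with PM, with the second vehicle mouse far above the others, and none of 55 was called.

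The drug's targets were read in the same cells. Hdac1 was at 134 and 131 CPM with vehicle and 138 and 128 CPM with PM (log2 0.01 ± 0.12) and Hdac2 at 118 and 101 CPM with vehicle and 86.3 and 109 CPM with PM (log2 -0.16 ± 0.14), both class I enzymes. Hdac6, of class IIb, was at 10.3 and 10.9 CPM with vehicle and 8.21 and 9.01 CPM with PM (log2 -0.30 ± 0.23). None of the 10 tested deacetylase genes was called, nor any of 22 genes of their corepressor complexes and of the acetyltransferases. Of 14 tested genes often raised by inhibitors of these enzymes none was called, at a median of -0.15. No call fell in MYC targets and ribosome biogenesis (28 genes, median -0.17), oxidative phosphorylation (77 genes, -0.12), the proteasome (38 genes, -0.10), cytosolic ribosomal proteins (76 genes, -0.05), the unfolded protein response (18 genes, -0.06), p53 targets (18 genes, 0.03), the BCL2 family (12 genes, -0.06), PRC2 (11 genes, -0.08) or osteoclast genes (17 genes, -0.09). Their medians lay between -0.17 and 0.03, beside -0.01 for all genes. A p above the threshold does not show that these genes were equal.

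Markers of other cells were read in the gated cells, since some of the calls belong to such lists. Of 10 erythroid markers, 8 were tested, and Car2, a carbonic anhydrase, and Klf1, an erythroid factor, were called higher. Car2 was at 4.17 and 3.99 CPM with vehicle and 35.7 and 52.7 CPM with PM (log2 3.42 ± 0.24 SE, adjusted p 3.36e-05), the largest rise by the naming rule. In the second PM mouse 461 of 560 UMIs of Car1, Car2 and Klf1 sat in 1 cell, and in the first PM mouse 185 of 505 did. With called doublets left out the rise of Car2 was 1.28 at an adjusted p of 0.136. Klf1 had 0 and 2 UMIs with vehicle but 31 and 24 with PM, and no fold is given for so few counts. The list summed to 144 and 157 CPM with vehicle and 334 and 261 CPM with PM, with Tfrc, which dividing cells use as well, its most abundant gene. The defining globin genes were not called, although Hba-a1 had 35 and 77 UMIs with vehicle and 394 and 81 with PM, most in the first PM mouse. The part of red cell transcripts in these calls was not tested.

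The eosinophil gene Prg3 had 2 and 0 UMIs with vehicle and 31 and 21 with PM, while Epx, which defines eosinophils, had 1, 0, 0 and 0 UMIs. The stem cell marker Ly6a (Sca-1), which interferon also induces, was at 2.73 and 1.56 CPM with vehicle and 11.8 and 9.01 CPM with PM (log2 2.27 ± 0.34 SE, adjusted p 0.00858), and the stem cell gene Mecom had 1, 0, 2 and 2 UMIs. The macrophage marker Axl, a receptor kinase, was at 5.45 and 1.91 CPM with vehicle and 14.6 and 12.5 CPM with PM (log2 1.87 ± 0.35 SE, adjusted p 0.0411), while C1qa, of the same list, had 13 and 5 UMIs against 19 and 3. The call of Axl was lost with a crossed replicate block and with a gate of at least 4 UMIs of Mki67 and Top2a. With vehicle, 44.4% of the Axl UMIs sat in 1 cell. Axl and Ly6a were also called higher in the non-cycling monocytes described below. Nkg7, of the T and NK cell list and of cytotoxic granules, was at 131 and 103 CPM with vehicle and 233 and 176 CPM with PM (log2 0.81 ± 0.16 SE, adjusted p 0.0485), while Cd3e had 0, 5, 9 and 0 UMIs and Ncr1 6, 2, 0 and 0. The call of Nkg7 was lost in 5 of 16 alternatives, among them without the second vehicle mouse and with called doublets left out. Cycling neutrophil precursors also held Nkg7, at 140 and 148 CPM with vehicle and 208 and 194 CPM with PM (adjusted p 0.451). The dendritic cell list held 1 call, H2-Aa, and its gene Siglech had 18, 10, 27 and 0 UMIs. Other members of these lists were more abundant. Vcam1, of the macrophage list, was at 15.2 and 14.6 CPM with vehicle and 27.6 and 21.4 CPM with PM (adjusted p 0.108), and Cd34, of the stem cell list, at 66.0 and 83.4 CPM with vehicle and 85.7 and 118 CPM with PM (adjusted p 0.390). Neither was called, although in both genes the PM values lay above the vehicle values, and the part of other cells in the calls of these lists was not tested. The eosinophil, stem cell, macrophage and T and NK cell lists summed to 1.12 and 0.347 CPM with vehicle and 4.05 and 4.6 CPM with PM (eosinophil, led by Prg3), to 135 and 143 CPM with vehicle and 158 and 204 CPM with PM (stem cell, led by Cd34), to 58 and 60.4 CPM with vehicle and 88.2 and 63.6 CPM with PM (macrophage, led by Vcam1) and to 137 and 107 CPM with vehicle and 239 and 178 CPM with PM (T and NK, led by Nkg7). The dendritic list, led by Bst2, summed to 196 and 139.8 CPM with vehicle and 222 and 197 CPM with PM. The complement gene Cfb, the only call of 8 acute phase genes, had 2 and 0 UMIs with vehicle and 29 and 24 with PM.

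Of the other lists, neutrophil markers were abundant, at a sum of 3032 and 5849.5 CPM with vehicle and 5856 and 4118 CPM with PM, led by S100a8, with 0 of 12 called and the first vehicle mouse lowest. B cell markers (2 of 10 tested) summed to 181 and 275 CPM with vehicle and 307 and 249.6 CPM with PM, led by Ighm, and plasma cell markers (5 of 9 tested) to 341 and 245 CPM with vehicle and 349 and 291 CPM with PM, led by Xbp1. Jchain, which defines plasma cells, was at 33, 24, 122 and 27 UMIs. Basophil, megakaryocyte and stromal lists (led by Mcpt8, Pf4 and Cxcl12) summed to at most 28.5, 12.03 and 1.59 CPM in any mouse, and the stromal gene Adipoq had no UMI. None of these lists held a call. When cells with UMIs of other lineages (any of Cd79b, Cd3e, Jchain, Car1, Siglech, Prss34 or C1qa, or more than 2 of Hbb-bs) were left out, 108 and 80 vehicle cells and 136 and 74 PM cells remained, with 23 genes higher and 5 lower. Of 33 named genes that had been called and could be tested in that smaller set, 13 kept the call and 20 lost it, all with the direction unchanged. Cd74, H2-Aa, H2-Ab1, H2-Eb1, Ear2, Prkcb, Apoe, Cd9, Axl, Cfb, Samd9l and Nfkbia were among those that kept it. Siglecg, Mgl2, Cd63, Gsn, Ly6a, Nkg7, Dhx58, Ube2l6, Xaf1, Lgals3bp, Cd14, Ccl2, Per1, Nfil3, Fcor, Kdm6b, Pirb, Ifi30, Mrpl52 and Cytip lost it.

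Non-cycling monocytes, the 427 cells of the same gates with no UMI of Mki67 or Top2a, served to ask what the dividing cells shared with later ones. There 75 genes were higher and 49 lower of 7590 tested (0.988% and 0.646%, or 1.63% together), and 9.91% had an unadjusted p under 0.05. Of the rises in cycling cells, 19 were called in both classes, which is 27.5% of the cycling and 25.3% of the non-cycling list, and of the falls 4 were, which is 28.6% and 8.16%. Only 35 of the 69 rises and 13 of the 14 falls were among the genes tested in non-cycling monocytes. Kdm6b, Mrpl52 and Per1 were among the shared falls, and Axl and Ly6a among the shared rises. In non-cycling monocytes Axl was at 5.42 and 5.86 CPM with vehicle and 83.0 and 80.0 CPM with PM (log2 3.85 ± 0.38 SE, adjusted p 1.03e-07). Ly6a was there at 10.8 and 3.52 CPM with vehicle and 187 and 108 CPM with PM (log2 4.46 ± 0.39 SE, adjusted p 3.29e-07). The classes come from the same mice, so the calls are not independent. Without the second PM mouse 127 genes were higher and 98 lower in non-cycling monocytes, without the first vehicle mouse 84 and 26, and without the second vehicle mouse 93 and 104. The type I interferon list had 11 of 67 members called higher in non-cycling monocytes, MHC class II 4 of 11, and glucocorticoid-responsive genes 3 of 9 called lower. Cd74 was far higher there, at 1652 and 1831 CPM with vehicle and 3037 and 2752 CPM with PM, and its rise of 0.76 ± 0.20 (adjusted p 0.0349) was smaller than that in the cycling cells by 0.82 ± 0.14 on the log2 scale (adjusted p 1.77e-05). For H2-Ab1 the difference was 0.71 ± 0.17 (adjusted p 0.0175), while those for H2-Aa, 0.61 ± 0.17 (adjusted p 0.0688), and H2-Eb1, 0.48 ± 0.26 (adjusted p 0.729), did not pass the test.

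The PM effect differed between cycling and non-cycling monocytes for 46 of 10798 genes, by edgeR's quasi-likelihood test of the interaction, fitted with each mouse as its own block. It was higher in cycling cells for 20 (0.185%) and lower for 26 (0.241%), and 7.39% of the genes had an unadjusted p under 0.05. Without the first vehicle mouse these counts were 10 and 35, without the first PM mouse 7 and 15, and without the second PM mouse 8 and 16. Cx3cr1, the fractalkine receptor of maturing monocytes, was at 31.9 and 33.3 CPM with vehicle and 31.6 and 33.6 CPM with PM, so the cycling cells of the 4 mice hardly differed. In non-cycling monocytes it was at 257 and 336 CPM with vehicle and 57.7 and 88.7 CPM with PM, a fall, and the difference of the effects was 2.08 ± 0.23 (adjusted p 9.9e-14). Srgn, the core of granule proteoglycan, was at 682 and 533 CPM with vehicle and 922 and 701 CPM with PM in cycling cells, without a call, and at 528 and 454 CPM with vehicle and 274 and 234 CPM with PM in non-cycling cells, where it fell (difference 1.37 ± 0.15, adjusted p 3.27e-14). Klf9, a factor that glucocorticoids induce, was at 68.9 and 46.5 CPM with vehicle and 23.9 and 35 CPM with PM in cycling cells, without a call. It fell in non-cycling ones, at 148 and 93.8 CPM with vehicle and 22.9 and 26 CPM with PM (difference 1.24 ± 0.30, adjusted p 0.0142).

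In the other direction, Ccnd1, the D-type cyclin of the G1 phase, was at 18.6 and 25.4 CPM with vehicle and 29.3 and 33.2 CPM with PM in cycling cells. In non-cycling monocytes it rose, with 2 and 1 UMIs in the vehicle mice against 66 and 9 in the PM mice, so that the size of the difference rests on very few counts (difference -3.93 ± 0.66, adjusted p 1.12e-05). Elane was at 13.5 and 11.7 CPM with vehicle and 123 and 41.1 CPM with PM in non-cycling monocytes, where the first PM mouse stood far above the rest (difference -2.01 ± 0.28, adjusted p 9.08e-08). In that mouse 355 of the 469 UMIs of Elane and Mpo in non-cycling monocytes sat in 1 cell, and 2 cells had 5 or more. Cd24a, a surface glycoprotein of immature cells, rose in both classes. It was at 157 and 201 CPM with vehicle and 281 and 282 CPM with PM in cycling cells and at 43.3 and 30.5 CPM with vehicle and 153 and 199 CPM with PM in non-cycling ones (difference -1.58 ± 0.23, adjusted p 9.08e-08). C1galt1c1, the chaperone of a glycosyltransferase, was at 265 and 216 CPM with vehicle and 213 and 199 CPM with PM in cycling cells, without a call, and rose in non-cycling ones (difference -1.47 ± 0.18, adjusted p 1.03e-10). Non-cycling cells held a median of 6659 to 9454 UMIs, and with each cell thinned to 3000 UMIs, which also moves cells between the classes, 2 genes were higher and 7 lower.

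**Figure D5:**
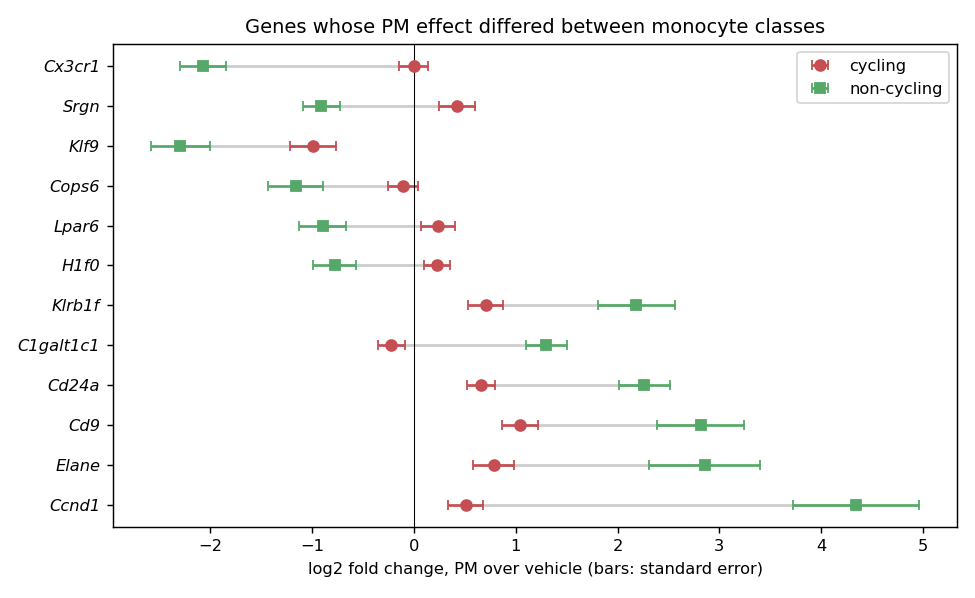
For 12 genes whose PM effect differed between the classes, points give the log2 fold change, PM over vehicle (horizontal axis), in cycling (red circles) and non-cycling (green squares) monocytes, with standard errors. Cx3cr1 lies near 0 in cycling cells and at -2.08 in non-cycling cells, and the effects on Ccnd1 differ by -3.93.

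Against cycling neutrophil precursors (4408 cells), which divide in the same marrow but on the other branch, 1 of 12766 genes (0.00783%) differed in its PM effect, and 866 (6.78%) had an unadjusted p under 0.05. This was Myadm, a membrane protein of myeloid cells, at 92.8 and 98.6 CPM with vehicle and 83.3 and 79.9 CPM with PM in the monocyte progenitors and 11.3 and 10.2 CPM with vehicle and 39.6 and 32.2 CPM with PM in the precursors (difference -1.97 ± 0.18, adjusted p 0.0276). The count rested on single mice: without the second vehicle mouse 1166 genes were higher and 915 lower, without the first 39 and 62, without the first PM mouse 15 and 3, and without the second 46 and 28. The difference for Cd14 was -0.80 ± 0.48 (adjusted p 0.799). No change called in the monocyte progenitors thus differed from that in the precursors by this test, which does not show that they were equal.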

How the data were processed

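The deposited files hold raw counts, UMIs per gene and cell barcode, which the authors made with Cell Ranger 6.0.1 (file header). The methods name the GRCm38 reference, whereas the submitters' processing notes list GRCm39, Cell Ranger and STAR. Of 32285 feature IDs, 32235 are in a GRCm38 annotation (GENCODE M21), and positions here use GRCm38. Each of 4 mice gave 1 library, with 2 mice per group.

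Cells that showed 300 genes or more and no more than 20% mitochondrial UMIs were kept and gated on raw counts. The gates, members, lists and tests were chosen with earlier results of these data known. Counts of the gated cells were summed per mouse and tested with edgeR 4.0.16 (TMM, filter on low counts, robust quasi-likelihood fit, group as the only term) in R 4.3.3, at a Benjamini-Hochberg adjusted p under 0.05 and an absolute log2 fold change over 0.5. The methods use DESeq2 on such sums, and DESeq2 1.42.0 was an alternative. Interactions, called at an adjusted p under 0.05, were fitted with the mouse as a block. The 9 gate genes were left out of all counts of calls. Shares were compared by an exact two-sided permutation test, with exact binomial intervals at the 95% level, which cover counting error only.

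Named genes were, beside the lineage factors and deacetylases, the 12 largest rises and falls above a mean of 20 CPM that went the same way in all 4 vehicle-PM pairs, up to 4 called members per list (where none was called, the 2 most abundant), and the 6 largest called interactions in each direction at a mean of 20 CPM or more in the cycling cells. Unnamed gene models and genes of immunoglobulins, T cell receptors, hemoglobins and mitochondria were left out of the second rule. A gene that the rule names is not reported here. Samd9l, Ciita, H2-DMa, H2-DMb1 and Ly6e were added after their values were seen. Doublets were scored with Scrublet in scanpy 1.11.5. Its automatic threshold marked 0.0432% of cells in the first vehicle mouse and 0.0755% in the second PM mouse. In the second vehicle and first PM mouse it marked 1.67% and 5.73%. The highest scores were therefore called instead, at 0.8% per 1000 barcodes. Counts were summed in Python 3.11.15, and the fits were tested on simulated counts. Promoters are from RefSeq. Alternatives covered normalization, the low-count filter, the test, the gates, doublets, other lineages, thinning to 3000 UMIs, a replicate block and leaving out each mouse.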

Additional observations from a re-analysis of the deposited data

Results flagged for a closer look

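The PM effect differed between cycling and non-cycling monocytes, by the interaction term, for 12 genes named by rule. The differences, cycling minus non-cycling on the log2 scale, were -3.93 for Ccnd1, -2.01 for Elane, -1.80 for Cd9, -1.58 for Cd24a, -1.47 for C1galt1c1 and -1.45 for Klrb1f. They were 2.08 for Cx3cr1, 1.37 for Srgn, 1.24 for Klf9, 1.10 for Cops6, 1.08 for Lpar6 and 0.97 for H1f0. Adjusted p-values (edgeR quasi-likelihood test) ranged from 3.27e-14 for Srgn to 0.0384 for Klrb1f. Of the genes not described above, Klrb1f was at 36.4 and 47.4 CPM with vehicle and 77.8 and 57.4 CPM with PM in cycling cells and at 6.77 and 16.4 CPM with vehicle and 52.2 and 56.2 CPM with PM in non-cycling ones. Cops6, a subunit of the COP9 signalosome, was at 60.9 and 75.7 CPM with vehicle and 68.6 and 57.4 CPM with PM in cycling cells and at 75.8 and 73.8 CPM with vehicle and 34 and 30.3 CPM with PM in non-cycling ones. For Klrb1f the PM mice were the higher ones in both classes, and for Cops6 they were the lower ones in non-cycling cells. Lpar6, a receptor for lysophosphatidic acid, was at 31.9 and 39.1 CPM with vehicle and 36.7 and 47.2 CPM with PM in cycling cells and at 118 and 117 CPM with vehicle and 64 and 58.4 CPM with PM in non-cycling ones. H1f0, a linker histone of resting cells, was at 72.1 and 81.4 CPM with vehicle and 82.9 and 97 CPM with PM in cycling cells and at 146 and 196 CPM with vehicle and 98.8 and 97.3 CPM with PM in non-cycling ones. Cd9, which rose in cycling cells, was at 4.06 and 9.38 CPM with vehicle and 44.3 and 56.2 CPM with PM in non-cycling ones. Cd74 (0.82) and H2-Ab1 (0.71), described above, also differed by this test. Against cycling neutrophil precursors, the effect on Myadm differed by -1.97. For Cx3cr1, Cops6, Lpar6 and H1f0 the difference came with a fall in non-cycling cells and no call in cycling cells.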

How the results depend on the processing

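In cycling monocyte progenitors, 69 genes higher and 14 lower became 40 to 184 and 25 to 80 without 1 mouse. They became 40 higher with DESeq2, 227 and 70 with no filter on low counts, 23 and 5 without cells that had UMIs of other lineages, and 12 and 5 after thinning to 3000 UMIs. With no gate on Mmp8, Mmp9 and Cxcr2, 23 were lower. The replicate numbers are not known to pair mice: deviations of same-numbered mice correlated at -0.163 in cycling and -2.45e-05 in non-cycling cells. With a replicate block 89 genes were higher and 23 lower in cycling cells, and 124 and 104 in non-cycling monocytes. A crossed replicate block, chosen after seeing the data, gave 75 higher and 26 lower.

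In non-cycling monocytes (75 and 49) the counts were 58 to 127 and 26 to 104 without 1 mouse, 17 and 7 with DESeq2, 121 and 93 with no filter, and 31 and 12 after thinning. Interactions with non-cycling monocytes (20 and 26) were 7 to 30 and 15 to 35 without 1 mouse, 33 higher with no filter, 35 and 44 without called doublets, and 2 and 7 after thinning. Those with neutrophil precursors (0 and 1) were 15 to 1166 and 3 to 915 without 1 mouse, 127 and 93 with no filter, 3 and 4 without called doublets, 21 and 47 after thinning, and 2 lower with DESeq2's size factors. The gated share differed by -0.246 percentage points with no gate on Mmp8, Mmp9 and Cxcr2, by -0.187 after thinning and by -0.204 without the first PM mouse, and averaged 1.09% with vehicle and 0.907% with PM without cells that had UMIs of other lineages, against a difference of 0.139 points as reported. The cycling share differed by -5.42 after thinning and by -0.227 without the second PM mouse, against 4.44. The cause of these moves was not tested.

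Of 591 pairs of a called named gene and an alternative, 484 kept direction and call, 107 kept the direction only and 0 turned. Cd74, Ear2, H2-Aa and H2-Ab1 passed in all 17 alternatives run for them. How depth per cell and the number of mice, 2 per group, bear on the counts of calls was not tested. Leaving out 1 mouse assumes that the lone mouse varies like the other group.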
